A study of Mus musculus with 5 samples.

Results

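The Zic genes encode zinc finger transcription factors related to the Gli and Glis proteins. They were followed here by name across single cells of the mouse ocular area. The 4 members analysed were Zic1, Zic2, Zic4 and Zic5, out of 27998 genes in the count table, and all 4 had UMIs. Another gene of the family is not analysed here. They were chosen by gene name, with earlier results of these data known. Per the labels, the cells came from wild-type C57BL/6J embryos with 12, 16, 20, 24 and 26 somites, 1 embryo per stage, from which the 2 optic areas were cut out with a needle and dissociated with trypsin. The tissue thus held the optic vesicle together with neighbouring forebrain, surface ectoderm and mesenchyme. The count table separates 5 libraries by barcode suffix but names no stage, so the libraries are numbered 1 to 5 by suffix, are not assigned to stages, and stages were not compared. There were no replicates. The intervals given are 95% intervals that cover counting error only, and no p-values were computed.

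In vertebrate embryos, Zic genes are known from the edge of the neural plate, the dorsal neural tube, the forebrain and parts of the paraxial mesoderm. Loss of ZIC2 function in humans is a known cause of holoprosencephaly, in which the forebrain fails to divide, and mouse Zic2 is known for guiding the axons of retinal ganglion cells that stay on their own side of the brain. Mouse Zic1 and Zic4 are known for their roles in the cerebellum, and mouse Zic5 for roles in the neural tube and the neural crest.

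The 4 genes lie as 2 opposed pairs in the mouse genome (GRCm38, GENCODE annotation). Zic1 (ENSMUSG00000032368, chr9:91358058-91365810, minus strand) and Zic4 (ENSMUSG00000036972, chr9:91362413-91389348, plus strand) overlap by 3398 bases at the 5′ part of both. Zic5 (ENSMUSG00000041703, chr14:122456795-122465677, minus strand) and Zic2 (ENSMUSG00000061524, chr14:122475435-122479852, plus strand) are 9757 bases apart. Whether the counting used strand is not given in the sources used here, so reads in the Zic1 and Zic4 overlap may not have been told apart. The 250 bases before the RefSeq start (GRCm38.p6) were searched on both strands for 7 motifs: the GC box GGGCGG, the CCAAT box, the E-box CACGTG, the Zic-type motif CAGCAGG, the Gli motif GACCACCCA, the homeodomain motif TAATTA and the TATA box TATAAA. No match overlapped another. RefSeq entries were matched for 3 members. The windows of Zic1 and Zic5 are shown as far as the first annotated exon of the gene, 208 bases at chr9:91365811-91366018 and 231 bases at chr14:122465678-122465908, both read on the minus strand, because these are the starts of the 2 members with the most UMIs. Capitals mark motif matches.
Zic1: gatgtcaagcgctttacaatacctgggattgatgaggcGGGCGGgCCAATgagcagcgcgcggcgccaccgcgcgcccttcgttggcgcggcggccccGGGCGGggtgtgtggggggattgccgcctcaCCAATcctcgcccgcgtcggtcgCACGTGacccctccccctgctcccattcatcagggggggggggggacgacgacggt
Zic5: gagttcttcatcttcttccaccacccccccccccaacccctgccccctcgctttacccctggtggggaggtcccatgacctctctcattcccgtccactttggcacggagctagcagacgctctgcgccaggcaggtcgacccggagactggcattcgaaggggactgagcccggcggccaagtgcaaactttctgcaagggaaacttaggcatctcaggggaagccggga

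The Zic1 window held GGGCGG at 212 and 152 bases before the start, CCAAT at 205 and 121 bases, and CACGTG at 98 bases. GGGCGG occurred in 32.7% of the 32851 RefSeq windows of the same length, CCAAT in 33.8% and CACGTG in 6.02%. The other motifs occurred in 8.44% (CAGCAGG), 0.225% (GACCACCCA), 4.84% (TAATTA) and 12.4% (TATAAA) of them. None of the 7 was found in the windows of Zic5 and Zic4. The G and C content of the 250 bases was 66% for Zic1 with 27 CpG, 62.4% for Zic5 with 11 CpG and 44.4% for Zic4 with 4 CpG, beside a median of 52.4% over all windows. All 250 bases of the Zic4 window lie in annotated exons of other Zic4 transcripts, and it is not printed.

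After filters, 8106 of 8194 barcodes remained as cells. The libraries held between 41694822 and 72925591 UMIs, with a median per barcode between 20713 in library 5 and 30922 in library 1. A total of 40 barcode sequences occurred in more than 1 library. Cells were clustered without the Zic genes, and clusters were named by marker genes, so class names stand for a likeness. The optic vesicle class held 2043 cells and the other forebrain class, of telencephalon-like and diencephalon-like cells, held 1160. The head mesoderm class held 449 cells, the crest mesenchyme class 1699, the migratory crest class 31 and the surface ectoderm class 438. Library 5 stood apart in its make-up: it held 805 of the optic vesicle cells, all 31 migratory crest cells and only 1 cell of the other forebrain class, and its cells formed sub-clusters almost on their own. Levels are UMIs of a gene scaled to 1000000 UMIs of a class (CPM). Because each UMI is counted near the 3′ end, a level is compared between cells for 1 gene, not between genes.

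Zic1 RNA was highest in the neuroepithelium and in 1 mesenchymal sub-cluster, here M2, which the clustering placed in the head mesoderm class and whose class is not settled. Its level was 42.7 CPM (41.3 to 44.3) in the optic vesicle class, 35.3 CPM (33.4 to 37.4) in other forebrain and 26.7 CPM (23.8 to 29.9) in the head mesoderm class, nearly all of it from M2. Crest mesenchyme had 4.02 CPM (3.48 to 4.62), surface ectoderm 1.21 CPM (0.692 to 1.97) and endothelium 0.618 CPM (0.267 to 1.22). Erythroid cells, the red blood cell precursors that served as a background, had 0.367 CPM (0.1 to 0.941) from 4 UMIs, so the intervals of surface ectoderm, endothelium and erythroid cells overlap. Of the 16 Zic1 UMIs in surface ectoderm, 6 came from 1 cell. In the 31 migratory crest cells there was 1 Zic1 UMI, or 1.96 CPM (0.05 to 10.9).

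Zic4 and Zic5 were also highest in the optic vesicle, in other forebrain and in M2 of the head mesoderm class, and Zic2 was low throughout. Zic5 had 19.3 CPM in the optic vesicle, 10.5 CPM in other forebrain, 9.83 CPM in head mesoderm and 3.38 CPM in crest mesenchyme. Zic4 had 5.26, 3.22, 3.90 and 0.267 CPM in the same 4 classes. For both genes the intervals of other forebrain and head mesoderm overlap. Zic2 had 2.60, 1.17, 1.86 and 0.738 CPM there, and its highest level in these classes in a library with at least 20 cells was 4.21 CPM, in the optic vesicle of library 4.

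**Figure D1:**
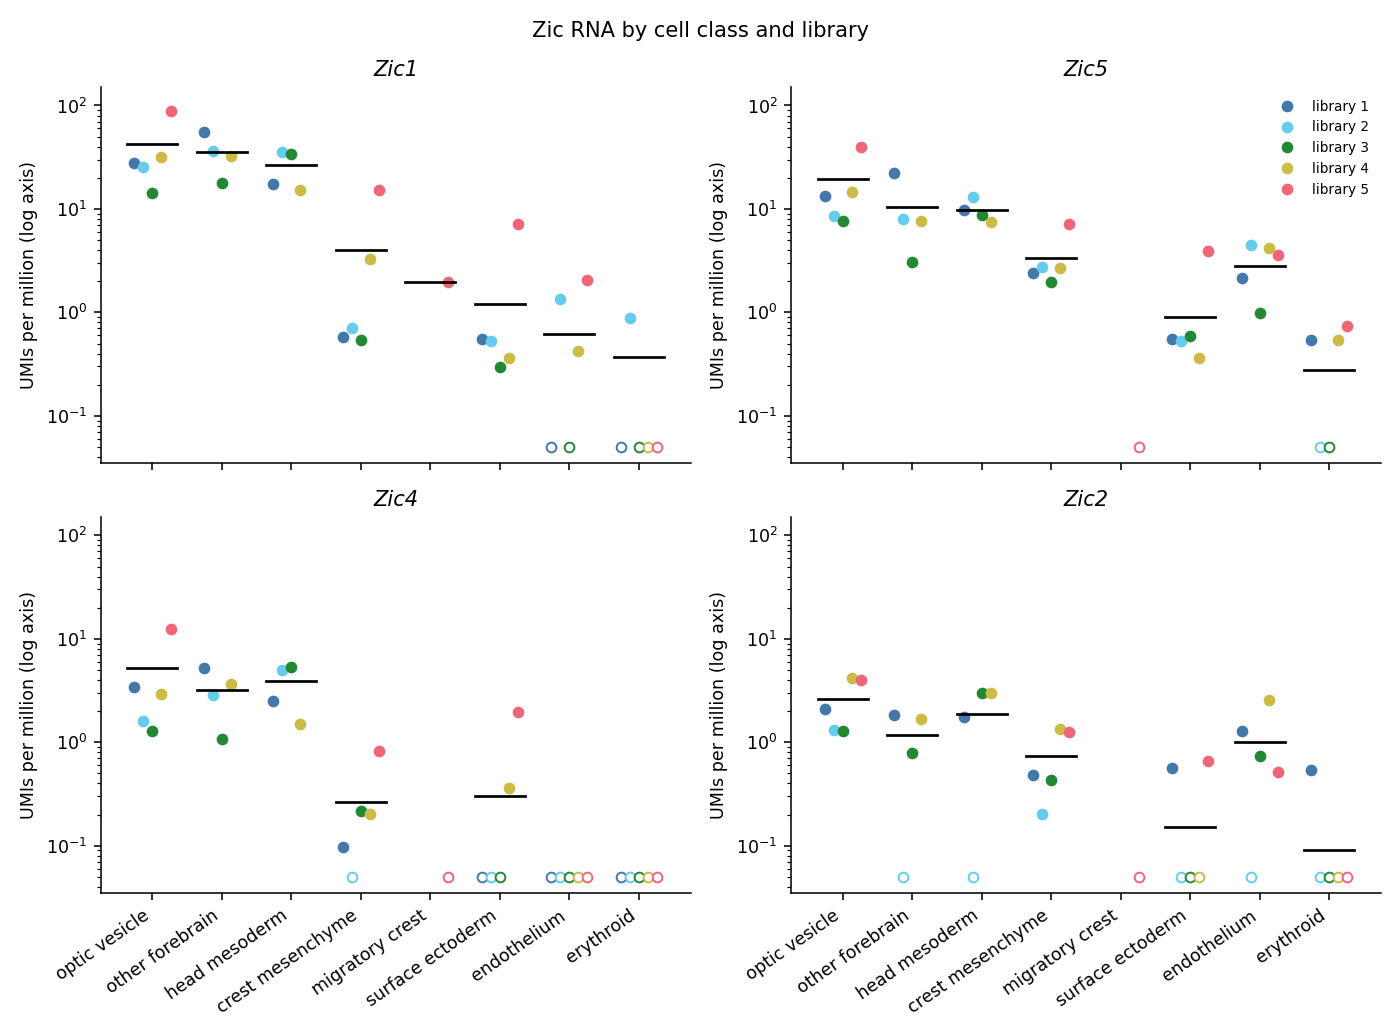
Each panel shows 1 Zic gene in CPM (log axis) for 8 cell classes. Coloured points are libraries with at least 20 cells of the class, open points at the bottom are libraries with 0 UMIs, and black bars are the level over all libraries. Zic1 in crest mesenchyme lies at 0.580, 0.714 and 0.541 CPM in libraries 1 to 3 but at 3.27 and 15.2 CPM in libraries 4 and 5.

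Within the optic vesicle class, Zic1 was at 28.0, 25.3, 14.2, 32.0 and 88.1 CPM in libraries 1 to 5. Library 5 was the highest and library 3 the lowest, with intervals that do not overlap those of the other libraries. Zic5 followed with 13.3, 8.58, 7.72, 14.4 and 39.7 CPM, Zic4 with 3.43, 1.60, 1.30, 2.91 and 12.4 CPM, and Zic2 with 2.10, 1.32, 1.30, 4.21 and 3.98 CPM. Library 5 was thus the highest for Zic1, Zic4 and Zic5 but not for Zic2. In other forebrain, Zic1 was at 55.7, 36.1, 17.7 and 32.6 CPM in libraries 1 to 4, and Zic5 at 22.3, 7.99, 3.05 and 7.73 CPM, with library 1 the highest for both. In head mesoderm, Zic1 was at 17.5, 35.4, 34.3 and 15.1 CPM in the same libraries.

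The classes also differed in which members made up their Zic UMIs. Zic1 gave 61.1% of the UMIs of the 4 genes in the optic vesicle, 70.4% in other forebrain, 63.2% in head mesoderm, 47.8% in crest mesenchyme and 14.04% in endothelium. Zic5 gave 27.6%, 20.8%, 23.2%, 40.2% and 63.2% in the same classes. The libraries of crest mesenchyme differed in this: Zic5 gave 67.6%, 75.0%, 62.1%, 35.6% and 29.4% in libraries 1 to 5, and Zic1 16.2%, 19.4%, 17.2%, 43.8% and 62.1%. In the optic vesicle of library 5, Zic5 gave 27.5% and Zic1 61.1%, close to the crest shares of that library. Without library 5 the shares in crest mesenchyme were 54.9% for Zic5 (47.2 to 62.4) and 28.6% for Zic1 (22.0 to 35.9), over 175 UMIs. The Zic1 share of endothelium was 8.89% without library 5, from 4 UMIs.

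**Figure D2:**
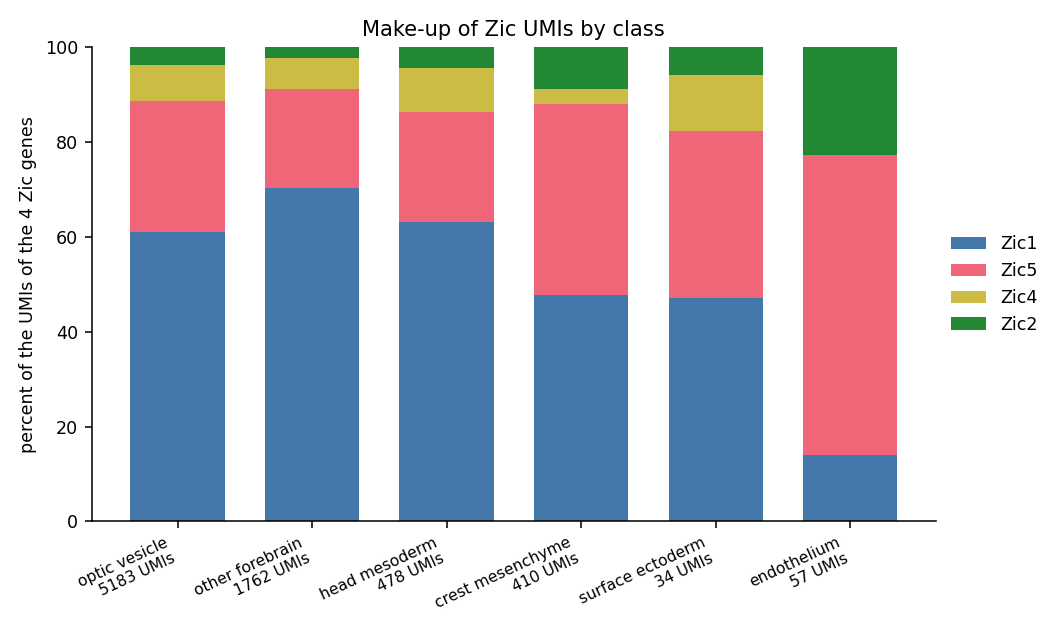
Stacked bars show the percent of the UMIs of the 4 Zic genes that came from each gene, for 6 classes, with the number of UMIs under each bar. Zic1 makes up 61.1% in the optic vesicle and 14.04% in endothelium, where Zic5 makes up 63.2%.

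Endothelium held more Zic5 than erythroid cells did. Its Zic5 level was 2.14, 4.52, 0.982, 4.23 and 3.59 CPM in libraries 1 to 5 and 2.78 CPM (1.95 to 3.85) in all, against 0.276 CPM (0.057 to 0.805) in erythroid cells. Endothelium lay above erythroid cells in every library, with intervals that overlap in libraries 1, 3, 4 and 5. In library 2 they do not, at 2.17 to 8.32 CPM in endothelium against 0 to 0.806 CPM in erythroid cells, which held 0 Zic5 UMIs there. The summed level of the 10 optic vesicle markers was 0.811% of the optic vesicle level in endothelium and 0.895% in erythroid cells, while Zic5 was at 14.4% and 1.43% and Zic1 at 1.45% and 0.860%. Zic2 had 1.005 CPM in endothelium (0.535 to 1.72, 13 UMIs) and 0.092 CPM in erythroid cells (1 UMI). Zic4 had 0 UMIs in both, which allows up to 0.232 CPM in endothelium and 0.276 CPM in erythroid cells. The part of free RNA or mixed droplets in these levels was not tested beyond these values.

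The first comparison asked whether the optic vesicle differed from the forebrain beside it. A gene was called higher or lower when its CPM ratio was at least 2 in either direction, the higher class had at least 20 CPM and every library with at least 20 cells of both classes went the same way. Of 5069 genes with at least 20 CPM in either class, 0.848% were called higher and 0.651% lower. Of the 4 Zic genes, 1 reached the level minimum, Zic1, and it was called neither. Its ratio over all cells was 1.21 (1.13 to 1.29), but within libraries 1 to 4 it was 0.502, 0.700, 0.803 and 0.981, so it was lower in the optic vesicle in 4 of 4 libraries that held both classes, with an interval that includes 1 in library 4. In library 1, 178 of the 180 optic vesicle cells were of 1 sub-cluster, N1, that also held telencephalon markers, so every optic vesicle ratio of library 1 is nearly a value of N1 alone. In library 3, 206 of the 488 optic vesicle cells were of N10, a sub-cluster that also held diencephalon markers, so the optic vesicle values of library 3 depend on its placing. With at least 7 markers asked for, N1 became other forebrain and library 1 gave no ratio, and the Zic1 ratio was 0.643 (0.533 to 0.774), 0.803 and 0.981 in libraries 2 to 4 and 1.28 over all cells. The pooled value rests on library 5, which has optic vesicle cells almost alone: without it the ratio was 0.608, and with libraries weighted equally it was 0.700.

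The ratio also turned on where mixed sub-clusters were placed. It was 2.27 when 5 rather than 6 optic vesicle markers sufficed for the class, which moves in a sub-cluster led by Wnt8b and Fgf17 and another led by Fabp7 and Ckb, and 0.977 when a sub-cluster of other forebrain led by Dbx1, Nkx2-1 and Shh was left out. Zic5 behaved otherwise in libraries 3 and 4. Its ratio of optic vesicle over other forebrain was 0.599 (0.451 to 0.787) in library 1, 1.07 (0.752 to 1.55) in library 2, 2.53 (1.72 to 3.83) in library 3 and 1.87 (1.39 to 2.52) in library 4. Over all cells the Zic5 ratio was 1.85, but 0.938 without library 5 and 3.35 without library 1. The Zic4 ratio was 1.64 over all cells and 0.591 without library 5. Zic2 had 2.60 CPM in the optic vesicle and 1.17 CPM in other forebrain, a ratio of 2.23 (1.59 to 3.21), and was higher in 4 of 4 libraries, at levels under the minimum for a call.

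**Figure D3:**
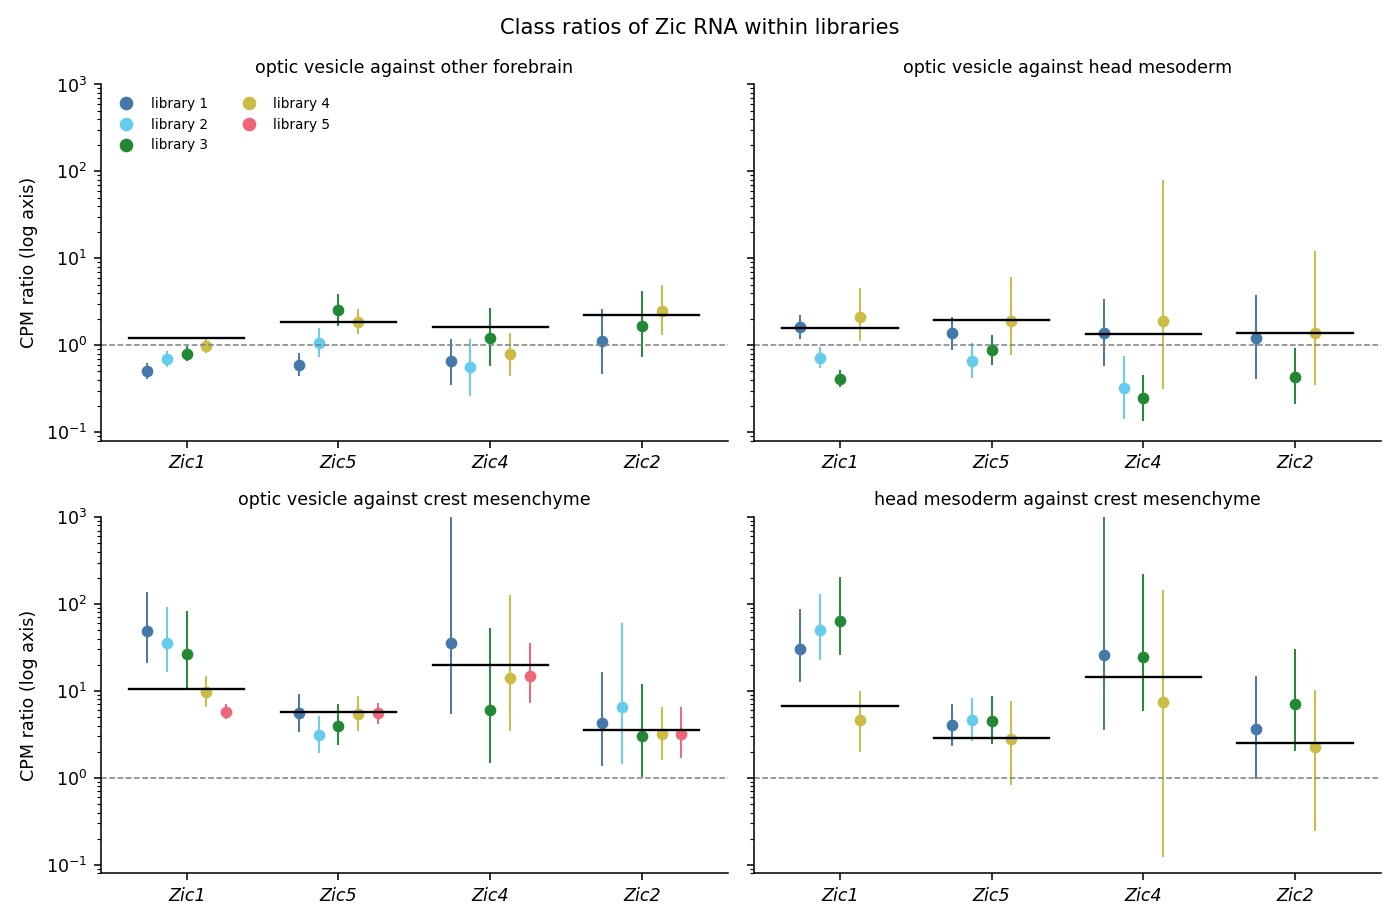
CPM ratios (log axis) of each Zic gene between 2 classes, with points for libraries, vertical lines for 95% counting intervals cut at the axis limits, and black bars for all libraries together; libraries with 0 UMIs on either side have no point. Zic1 lies under 1 in 4 of 4 libraries for optic vesicle against other forebrain while its bar is at 1.21, and lies above 1 in 5 of 5 libraries against crest mesenchyme.

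All 4 genes had more RNA in the optic vesicle than in crest mesenchyme, in 5 of 5 libraries each. The share of all genes that did so was not counted, so the number of members going this way gives no support. In library 2 the direction rested on 14 against 2 UMIs for Zic2 and 17 against 0 UMIs for Zic4. Of 5356 genes, 4.03% were called higher in this comparison and 4.35% lower. Zic1 was the 1 member called, higher at a ratio of 10.6 (9.21 to 12.4). By library the Zic1 ratio was 48.3, 35.4, 26.3, 9.76 and 5.79, and without library 5 it was 16.8. Zic5, at 19.3 CPM just under the minimum of 20 CPM, had a ratio of 5.72 (4.86 to 6.76), Zic4 one of 19.7 (11.4 to 37.4) and Zic2 one of 3.53 (2.46 to 5.19). Against surface ectoderm, where 1.53% of 5435 genes were called higher and 5.69% lower, Zic1 was again called higher, at 35.3 (21.7 to 61.8), and the ratio of Zic5 was 21.3 (12.2 to 41.3). The level of the optic vesicle marker list in surface ectoderm was 39.6% of that in the optic vesicle, while Zic1 was at 2.83% and Zic5 at 4.70%.

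Against head mesoderm, where 3.65% of 5451 genes were called higher and 6.05% lower, 0 members were called. The Zic1 ratio of optic vesicle over head mesoderm was 1.60 (1.42 to 1.80) over all cells. By library it was 1.60, 0.713, 0.414 and 2.12 in libraries 1 to 4, above 1 in the first and last of these and below 1 in the others. It was 0.788 without library 5 and 2.51 without library 3. Between head mesoderm and crest mesenchyme, where 2.18% of 5316 genes were called higher and 0.828% lower, Zic1 was called higher at a ratio of 6.66 (5.54 to 8.01). By library that ratio was 30.1, 49.6, 63.5 and 4.61 in libraries 1 to 4, and it was 21.4 without library 5. Zic5 had a ratio of 2.91 (2.26 to 3.72) and Zic4 one of 14.6 (7.73 to 29.6), under the level minimum.

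Nearly all Zic RNA of head mesoderm lay in 1 sub-cluster. M2, a sub-cluster of 212 cells led by Acta2, Tagln and Fst, of which 208 cells belonged to the class, had Zic1 at 30.4, 82.1 and 56.6 CPM in libraries 1, 2 and 3. The other large sub-cluster of the class, M3, with 233 cells and with Pgf, Lmx1a and Aldh1a2 among its leading genes, had 4 Zic1 UMIs in all, beside 302 in the class, at 1.13, 0.768 and 0 CPM in the same libraries. The sub-clusters did not overlap in any of the 3 libraries. M2 over M3 gave a Zic1 ratio of 26.9 (7.16 to 226) in library 1 and 107 (18.7 to 4275) in library 2. In library 3, where M3 had 0 Zic1 UMIs, the interval of the ratio began at 24.5. Over the floor of 3 counts it was 30.5-fold there. Zic5 was at 16.5, 28.4 and 14.9 CPM in M2 and at 1.13, 0 and 1.85 CPM in M3. Zic4 was at 3.57, 10.8 and 8.48 CPM in M2 and at 1.13, 0 and 0 CPM in M3. Zic2 was at 3.13, 0 and 5.66 CPM in M2 and at 0 CPM in M3.

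The class of M2 is uncertain. M2 held 8 of 11 markers of cranial crest mesenchyme and 5 of 12 of head mesoderm, while M3 held 7 and 6 of them. Alx1, a crest mesenchyme marker, was at 16.5 CPM in M2 and 21.2 CPM in M3, beside 147 to 219 CPM in the crest sub-clusters M1, M4, M5, M7, M8 and M9. When cells were clustered at a finer resolution of 2, 193 of the 212 M2 cells joined crest mesenchyme and 17 stayed in head mesoderm, while 224 of 233 M3 cells stayed. The Zic1 ratio of head mesoderm over crest mesenchyme then turned to 0.081. It was 0.083 with M2 counted as crest and 0.190 with M2 left out. The ratio of optic vesicle over head mesoderm became 62.5 at the finer resolution and 56.9 with M2 counted as crest or left out, and that of optic vesicle over crest mesenchyme became 5.08 and 4.74 with M2 in crest. The high Zic level is therefore a measurement of M2 and cannot be assigned here to head mesoderm or to crest.

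Traces of optic vesicle RNA in M2 were small beside its Zic RNA. The 10 optic vesicle markers summed to 3.06%, 2.08% and 3.53% of their optic vesicle level in M2 of libraries 1 to 3, with Vax1 at 0 in all 3. Zic1 in the same cells was at 108%, 325% and 398% of its optic vesicle level.

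**Figure D4:**
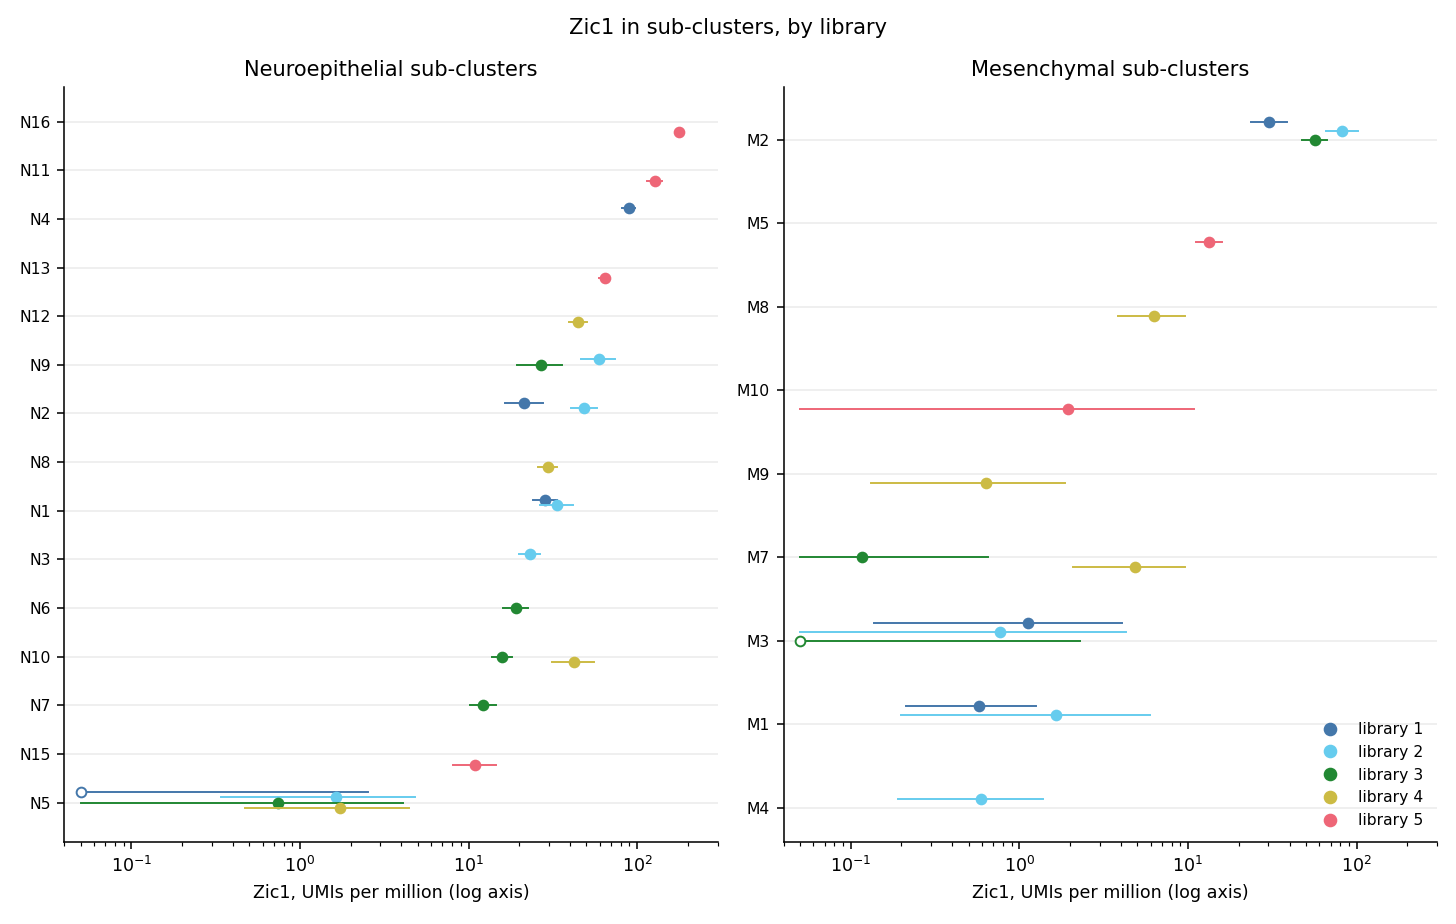
Zic1 in CPM (log axis) for each sub-cluster of neuroepithelium (left) and mesenchyme (right), ordered by level; N14 and M6, with mixed markers, are not drawn. Points are libraries with at least 20 cells, lines are 95% counting intervals, and open points are libraries with 0 UMIs. N16 of library 5 is the highest at 178 CPM, M2 lies between 30.4 and 82.1 CPM, and N5 is at or under 1.73 CPM in 4 libraries.

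Crest mesenchyme itself was uneven. In library 4, a sub-cluster led by Dio3, Dlk1 and Bmp4 (M8, 120 cells) had Zic1 at 6.25 CPM and Zic5 at 5.65 CPM, against 0.635 and 0.212 CPM in a sub-cluster with Col1a2 and Tbx2 among its leading genes (M9, 176 cells). The ratio of M8 over M9 was 9.83 (2.94 to 51.5) for Zic1 and 26.7 (4.24 to 1109) for Zic5, the lower values resting on 3 and 1 UMIs. In library 5, crest mesenchyme was nearly all 1 sub-cluster (M5, 499 cells, with Bcl11a and Igf1 among its leading genes), with Zic1 at 13.3 CPM and Zic5 at 7.13 CPM. There Zic1 was at 15.1% and the optic vesicle marker list at 2.18% of the optic vesicle level. In libraries 1 to 3, crest mesenchyme had Zic5 at 18.1%, 32.1% and 25.2% of the optic vesicle level and Zic1 at 2.07%, 2.83% and 3.80%, with the marker list at 1.45%, 2.75% and 1.43%.

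The migratory crest class could not be separated from 0 for most members. It had 0 UMIs of Zic2, Zic4 and Zic5, which allows up to 5.87 CPM each. The Zic1 ratio of migratory crest over crest mesenchyme was 0.487 (0.012 to 2.74) in all, and 0.129 (0.003 to 0.728) within library 5, where the 31 cells lay. In this comparison 11.4% of 5875 genes were called higher and 13.7% lower, and 0 Zic genes reached the level minimum.

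Neuroepithelial sub-clusters of 1 library differed from one another as much as classes did. In library 5, N16 (214 cells, with Cp, Vwc2, Kdr and Pax2 among its leading genes, and Zic1 and Zic4 as well) had Zic1 at 178 CPM, Zic5 at 57.5 CPM and Zic4 at 27.2 CPM. Next came N11 (155 cells), with 127, 57.0 and 23.4 CPM, a sub-cluster of shallow cells with a median of 14698 UMIs. N13 (288 cells, led by Aldh1a1, Dapl1 and Hmx1) had 64.3, 37.2 and 6.11 CPM. N15 (144 cells, led by the pigment genes Pmel, Dct and Trpm1) had 10.9, 13.2 and 3.12 CPM, the lowest of the 4.

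The Zic1 ratio of N16 over N13 was 2.76 (2.501 to 3.05) and of N16 over N15 16.2 (12.2 to 22.1). For Zic5 these ratios were 1.55 (1.33 to 1.80) and 4.37 (3.30 to 5.88), so Zic1 differed more between the sub-clusters than Zic5 did, with intervals that do not overlap. Pax2, which marks ventral optic vesicle and optic stalk, was at 129 CPM in N16, 139 CPM in N11, 95.4 CPM in N13 and 34.6 CPM in N15. Vax2, another ventral gene, was at 86.6 CPM in N16, 119 CPM in N11, 126 CPM in N13 and 31.8 CPM in N15, an order unlike that of Zic1. Tbx5, a dorsal optic gene, was at 0 CPM in N16, 4.37 CPM in N11, 22.6 CPM in N13 and 15.9 CPM in N15. These 4 sub-clusters came almost wholly from library 5, so their levels cannot be set apart from that library.

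In library 1, a sub-cluster led by Wnt8b, Fgf17, Fgf8 and Emx2 (N4, 170 cells), genes of the dorsal and anterior telencephalon, had Zic1 at 89.1 CPM. N1 (178 optic vesicle cells) had 28.4 CPM and N2 (80 cells, led by the diencephalic genes Barhl2 and Lhx5) had 21.4 CPM. N4 over N1 gave 3.13 (2.60 to 3.80) for Zic1, 2.42 (1.82 to 3.23) for Zic5 and 2.18 (1.22 to 4.02) for Zic4. N1 is a borderline member of the optic vesicle class: it held 6 of 10 optic vesicle markers but 8 of 8 telencephalon markers, and at the finer resolution 138 of its cells stayed and 137 moved to other forebrain. Another, N10 of libraries 3 and 4, split into 83 optic vesicle, 86 other forebrain and 62 mixed cells. N10 had a median of 59808 UMIs, beside 34708 UMIs in N7, the other large optic vesicle sub-cluster of library 3. It held 8 of 10 optic vesicle markers and 6 of 10 of diencephalon and hypothalamus. In library 3, Zic1 was at 15.7 CPM in N10 and 12.2 CPM in N7, and Zic5 at 6.00 and 9.87 CPM.

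The lowest neuroepithelial level was in N5, led by Dbx1, Nkx2-1 and Shh, of which Nkx2-1 and Shh mark the ventral forebrain. Its Zic1 level was 0, 1.65, 0.737 and 1.73 CPM in libraries 1 to 4. In library 4, N8 (207 optic vesicle cells) had 29.5 CPM against 1.73 CPM in N5, a ratio of 17.0 (6.57 to 63.1). Zic1 and Zic5 did not always go together in the forebrain. N9, a forebrain sub-cluster with Hes5 and Dlk1 among its leading genes, had Zic1 at 59.1 and 26.8 CPM in libraries 2 and 3 but Zic5 at 2.33 and 2.44 CPM. In library 3, N7 (276 optic vesicle cells) had Zic1 at 12.2 CPM and Zic5 at 9.87 CPM, against 19.1 and 3.56 CPM in N6, a forebrain sub-cluster. N7 over N6 gave 0.639 (0.498 to 0.819) for Zic1 and 2.77 (1.78 to 4.47) for Zic5.

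Optic vesicle cells were next split by genes of known position. Vax2 marks the ventral and Tbx5 the dorsal optic vesicle. In cells with Vax2 and no Tbx5, Zic1 was at 13.8, 36.4 and 94.4 CPM in libraries 3, 4 and 5, against 11.2, 2.19 and 38.4 CPM in cells with Tbx5 and no Vax2. The ratio was 1.24 (0.713 to 2.32), 16.6 (5.61 to 81.2) and 2.46 (2.01 to 3.03). It was above 1 beyond counting error in libraries 4 and 5, the value in library 4 resting on 3 UMIs in 36 dorsal cells. For Zic5 the ratios were 0.609 (0.359 to 1.09), 1.02 (0.598 to 1.85) and 1.03 (0.833 to 1.29), with intervals that include 1 in each library. Over all libraries together the Zic5 ratio was 0.799 (0.674 to 0.952), and the Zic1 ratio 2.46 (2.06 to 2.97). Zic4 in library 5 was at 12.4 CPM in Vax2 cells and 5.28 CPM in Tbx5 cells, a ratio of 2.35 (1.36 to 4.39). In library 4, the median depth was 38495 UMIs in Vax2 cells and 34458 UMIs in Tbx5 cells.

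**Figure D5:**
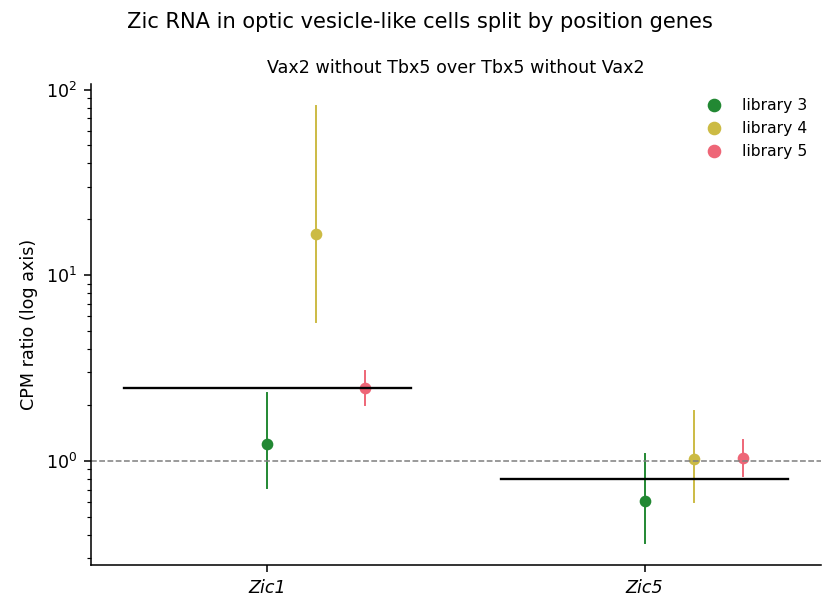
CPM ratios (log axis) of Zic1 and Zic5 between optic vesicle cells sorted by Vax2 and Tbx5, as Vax2 cells over Tbx5 cells. Points are libraries with 95% counting intervals and black bars are all libraries together. Zic1 lies at 16.6 and 2.46 in libraries 4 and 5 while Zic5 lies at 1.02 and 1.03.

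Co-detection was counted after thinning every cell to 10000 UMIs, which kept 7736 cells and left out 370 shallower ones, 160 of them from library 5. In the optic vesicle, 28.0% of 1981 cells held a Zic1 UMI, 18.1% Zic5, 6.21% Zic4 and 2.93% Zic2, against 0%, 0.791%, 0% and 0% of 253 erythroid cells. Counting all UMIs, the Zic1 share was 51.4% in the optic vesicle and 1.58% in erythroid cells, whose median depths were 30238 and 42576 UMIs. Without library 5 the thinned shares in the optic vesicle were 17.5% for Zic1, 9.52% for Zic5 and 1.64% for Zic4. In M2 25.4% of 209 cells held Zic1, against 0.435% of 230 cells in M3.

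At this depth 12.8% of optic vesicle cells held at least 2 members, and 43.3% of N16 cells did. Zic1 and Zic4 were found together in 4.69% of optic vesicle cells (3.81 to 5.72), 2.70 times the product of their shares. Of the optic vesicle cells with Zic4, 75.6% also held Zic1, against 24.8% of the cells without Zic4. Within library 5 the excess was 1.78 times over 82 cells with both, and within N16 it was 1.25 times. In libraries 1 to 4 it was 3.13, 2.01, 3.07 and 2.69 times, resting on 4, 2, 1 and 4 cells with both. Zic1 and Zic5 were together 1.76 times as often as the product in the optic vesicle, but 1.38, 1.05, 1.10, 1.47 and 1.38 times within libraries 1 to 5. The excess over all cells was thus larger than within any library. In M2 Zic1 and Zic5 were together in 6 cells, 0.910 times the product. Cells of 1 class share libraries and positions, and a share with a UMI at this depth is not the share of cells that express the gene.

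Across 36 profiles of a class in a library with at least 30 cells, the genes most like Zic1 among 7964 genes were the other members Zic4 (Pearson r = 0.914) and Zic5 (0.905), followed by Fst (0.880), Foxd1 (0.796) and Rprm (0.788). These are correlations of log2(CPM + 5), given as a description with no p, over profiles that share libraries and cell types. Genes outside the family were ranked only if they reached 20 CPM in 1 or more profiles. Zic4 and Zic2 were ranked without this minimum, with top levels of 12.4 and 4.21 CPM. The rank of Zic4 is therefore partly set by the choice of genes, and Zic2 lay under the added 5 CPM in every profile. Zic4 and Zic5 had 0.905 with each other. Zic2, with its few UMIs, was most like Zic5 (0.715), Fst (0.669) and Vax2 (0.639). Fst, which encodes follistatin, an antagonist of activins, was thus the first gene outside the family for all 4 members. Between neuroepithelial sub-clusters Fst did not follow Zic1. It was at 27.0 CPM in N16 and 124 CPM in N15, and at 4.27 CPM in N4 and 56.5 CPM in N5, with Zic1 higher in N16 and N4.

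The genes around the family moved unevenly between the same classes. Of the relatives Gli and Glis, 2 of 6 genes were measured above the minimum in each comparison and 0 were called. Of 12 genes of Hedgehog signalling and holoprosencephaly, Gas1, a Hedgehog co-receptor, was higher in the optic vesicle than in other forebrain, at 59.1 against 28.7 CPM, and lower than in crest mesenchyme, at 59.1 against 131 CPM. The list's median log2 ratio was -0.18 against other forebrain and -0.24 against crest mesenchyme, over 5 genes each, beside -0.04 and -0.07 over all genes tested. Ptch1, the Hedgehog receptor, was called lower in the optic vesicle than in head mesoderm, at 23.9 against 64.2 CPM.

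Of 14 genes of the neural plate border and dorsal midline, 3 were measured above the minimum between the optic vesicle and other forebrain. Wnt8b was at 5.90 CPM in the optic vesicle against 46.3 CPM in other forebrain, and Rspo3 at 8.69 against 27.1 CPM. Both were called lower, beside 0.651% of all genes. Against crest mesenchyme, where 4.35% of all genes were called lower, Sox9 was called lower at 29.3 against 86.9 CPM, above the minimum in both classes. Msx1 was at 5.75 against 56.5 CPM and Pax3 at 0.756 against 26.7 CPM. A gene above the minimum in 1 class alone could be called in 1 direction only. This holds for Wnt8b, Rspo3, Msx1 and Pax3, and for the calls of Efnb1, Ephb2, Foxd1, Lmx1a and Msx2 that follow. It holds also for Aldh1a3 against other forebrain and for every call of Zic1. All these calls give a size and no support from their number. Of 10 genes of optic position and axon guidance, Aldh1a3, an enzyme of retinoic acid synthesis, was called higher in the optic vesicle than in other forebrain, at 128 against 3.36 CPM, and Efnb1, a guidance ligand, was called lower at a ratio of 0.472. Ephb2, a receptor of such ligands, was called higher than in crest mesenchyme, at 31.6 against 10.1 CPM. Against surface ectoderm, where 1.53% of all genes were called higher and 5.69% lower, Aldh1a3 was called lower in the optic vesicle. It was at 128 against 931 CPM, above the minimum in both classes. Ptch1, Gas1, Msx1 and Msx2 of the lists were also called lower there, and Foxd1 higher. Between head mesoderm and crest mesenchyme, Foxd1, at 38.3 against 18.6 CPM, and Lmx1a, at 23.9 against 0.349 CPM, were called higher beside Zic1, and Gas1 and Pax3 lower. Lmx1a was among the leading genes of M3, where Zic1 was low. Foxd1 was at 47.8 CPM in M2, whose class is not settled, and at 25.3 CPM in M3. Its call without M2 was not tested.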

How the data were processed

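The deposited matrix holds raw UMI counts, whole numbers of RNA molecules per gene and barcode, pooled by the authors over all samples. Libraries were made with the Chromium 3′ v3 kit, per the labels' protocols, and the submitters' processing notes list Cell Ranger, with no version, and mm10 (GRCm38). The cell-calling rule is not given in the sources used here. Members, lists and tests were chosen with earlier results of these data known.

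The filter kept barcodes with 1000 or more genes whose mitochondrial share was 10% or less. Scrublet, run per library at an expected 6%, removed 66 barcodes (0.808%), between 0.403% and 1.46% per library, and below 0.5% in library 4. Cells were scaled to 10000 UMIs and clustered with scanpy 1.11.5 (2000 variable genes, 30 components, 15 neighbours, Leiden resolution 1), leaving out Zic, related, mitochondrial, ribosomal, haemoglobin and sex-linked genes. A marker counted when it had 10 UMIs or more and was 2-fold up in CPM + 5; a name needed 3 markers, and an optic vesicle sub-cluster 6 of 10, set against non-neural cells. These thresholds, the rules for clusters kept outside the classes (Malat1 under 1000 CPM, a main cluster led by Nkx2-1 and Shh, mixed markers) and the pairs of sub-clusters were set after clusters and Zic levels had been seen, as were 6 alternatives. Head mesoderm and crest classes follow the main clusters.

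UMIs were summed per class to CPM with exact Poisson intervals; ratios carry exact conditional intervals and shares Clopper-Pearson intervals, all of 95% and for counting error only. A count of 0 allows up to 3 counts. All members were named, with some of the genes of the related lists called by the size rule and some of the 5 genes most like each member. The size rule and intervals were tested on simulated counts.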

Additional observations from a re-analysis of the deposited data

Results flagged for a closer look

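Zic1 went opposite ways between the optic vesicle and head mesoderm in different libraries: the ratio was 1.60 in library 1 and 2.12 in library 4, with intervals above 1, but 0.713 in library 2 and 0.414 in library 3, with intervals below 1. The difference between libraries was not tested, and M2 made up 82 of 153, 39 of 107 and 74 of 145 head mesoderm cells in libraries 1, 2 and 3. Zic5 did so between the optic vesicle and other forebrain, at 2.53 in library 3 and 1.87 in library 4 against 0.599 in library 1, also untested.

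Clusters kept outside every class held Zic RNA above the erythroid level. The ventral class, with Shh and Nkx2-1 as leading genes, had Zic1 at 5.31 CPM and Zic5 at 1.77 CPM. The nucleus-depleted clusters, with little Malat1 and a median of 13565 UMIs, had Zic1 at 23.5 CPM, Zic5 at 4.45 CPM and Zic4 at 0.843 CPM. The clusters with mixed markers, with a median of 51701 UMIs, had Zic1 at 20.2 CPM, Zic5 at 11.5 CPM, Zic2 at 3.00 CPM and Zic4 at 1.99 CPM. Erythroid cells had Zic1 at 0.367 CPM, Zic5 at 0.276 CPM, Zic2 at 0.092 CPM and Zic4 at 0.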

How the results depend on the processing

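The pairing of classes by library was not used in a test, since no test was made. Each stage had 1 embryo, the libraries carry no stage, and the results are ratios with counting intervals. Classes share their libraries, and their ratios within each library are given with the results. The Zic1 ratio of optic vesicle over other forebrain was 1.21 and moved to 0.942 with doublets kept, 1.30 at Leiden resolution 2, 1.09 with Zic and related genes allowed in the clustering, 1.34 with at least 2500 genes per barcode, 1.07 and 1.52 when the ventral class joined the optic vesicle and other forebrain in turn, 0.700 with libraries weighted equally, 2.27 with 5 optic vesicle markers and 0.977 without N5. Its direction is therefore not settled by these choices. Over head mesoderm the ratio was 62.5 at resolution 2, 56.9 with M2 as crest or left out, 1.41 with the ventral class added to the optic vesicle and 0.972 with equal weights. Over crest mesenchyme it was 5.08 at resolution 2 and 4.74 with M2 as crest, and over surface ectoderm 20.9 with equal weights. The ratio of head mesoderm over crest mesenchyme was 20.0 with equal weights and reversed to 0.081 at resolution 2, 0.083 with M2 as crest and 0.190 without M2, where 0 members were called, against 1 as reported. Over head mesoderm, the members called in the optic vesicle were 1 with M2 as crest or left out and 2 at resolution 2, against 0 as reported. The cause of these changes was not tested beyond the construction of each alternative.

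Zic5, close to the level minimum, made the count 2 for optic vesicle over crest mesenchyme and over surface ectoderm with doublets kept, at resolution 2, with at least 2500 genes, without mitochondrial, ribosomal and haemoglobin genes in the CPM, and with 7 optic vesicle markers, and made it 1 over other forebrain with at least 2500 genes. The Zic1 share of optic vesicle cells was 18.3% at 5000 UMIs, 51.4% without thinning and 13.6% for at least 2 UMIs, and the Zic1 and Zic4 excess was 1.71 times without thinning.

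Leaving out each library in turn gave Zic1 ratios of 0.608 to 1.59 over other forebrain, 8.87 to 16.8 over crest mesenchyme, 0.788 to 2.51 over head mesoderm and 30.9 to 50.2 over surface ectoderm, and 4.69 to 21.4 for head mesoderm over crest mesenchyme and 0.395 to 0.465 for migratory crest over crest mesenchyme. The counts of members called stayed at 1 to 2 over crest mesenchyme and over surface ectoderm, the Zic1 share at 17.5% to 33.6%, and the Zic1 and Zic4 excess at 2.28 to 3.15 times. The Zic1 share of the Zic UMIs in crest mesenchyme was 28.6% to 50.9%. Another 118 values of these comparisons under the alternatives that keep all libraries stayed within the counting interval, or within 1.5 times the count, of the reported value. Zic2 and Zic4, with few UMIs, set the limit of depth.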
